A study of Mus musculus with 23 samples.

Results

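The microRNAs described here are processed from the imprinted Dlk1-Dio3 region of mouse chromosome 12. They were chosen by name from a list of 48 microRNA names that takes either arm of a hairpin. Of these names 43 had a row in the deposited tables. They gave 74 mature microRNA rows of the 1256 rows of the series, and 73 of the 74 had counts in at least 1 library (miR-673-3p had none).

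At this locus the protein-coding genes Dlk1, Rtl1 and Dio3 are expressed from the paternal chromosome, while the noncoding transcripts Meg3, Rian and Mirg, and the microRNAs that lie along them, come from the maternal one. The microRNAs are best known from the embryo, the placenta, the brain and muscle, and are low in most adult tissues. In mouse haematopoietic stem cells the noncoding transcripts of the locus are known to restrain signalling through the PI3K and mTOR kinases. A microRNA guides Argonaute proteins to messenger RNAs, mainly by pairing of its seed, bases 2 to 8 from its 5′ end.

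Small RNA was sequenced in 23 libraries from 6 populations of mouse lymphocytes, in a study of microRNAs in type 2 immunity of the lung. Group 2 innate lymphoid cells (ILC2) are tissue lymphocytes that answer alarm cytokines of the epithelium with type 2 cytokines, and T helper 2 (Th2) cells are the CD4+ T cells that make the same cytokines after antigen. Cultured ILC2 (n = 4) were kept for 10 days with IL-33, TSLP and IL-7 (10 ng/ml per the labels). IL-33 ILC2 (n = 4) came from lungs of mice given 500 ng of IL-33 by aspiration over 3 days, and lung ILC2 (n = 4) from lungs of untreated mice. These 3 groups were wild type and were sorted as CD45+Thy1+lin-CD4-CD25+ST2+ cells. Cultured Th2 (n = 4) were wild-type CD4+ cells of spleen and lymph nodes, selected with beads and grown for 5 days with antibodies to CD3 and CD28, IL-4 (500 U/ml) and anti-IFNg (10 µg/ml). OVA-lung Th2 (n = 3) were CD45+CD11c-CD11b-CD4+CD3+4get+ lung cells of Il4tm1LKy mice, which carry an IL-4 reporter allele, sensitized with 50 µg of ovalbumin (OVA) in alum over 3 weeks and challenged in the airway with 50 µg over 3 days. CD4 T cells (n = 4) were wild-type CD4+CD62LhiCD44loCD25-CD69- cells of spleen and lymph nodes. OVA-lung Th2 thus differ from CD4 T cells in genotype and organ as well as in exposure to OVA, and these cannot be told apart. The sort markers are proteins, so small RNA counts do not check them.

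The sequences below are those of the 10 most abundant members by the average of the 6 group means, since the locus sum rests mainly on them. They are RefSeq mature sequences (GRCm38.p6), which matched 71 of the 74 rows, and capitals mark the seed. The other 3 rows were miR-376c-3p, miR-485-5p and miR-487b-3p.

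miR-127-3p: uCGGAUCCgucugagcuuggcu

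miR-127-5p: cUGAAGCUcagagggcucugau

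miR-434-5p: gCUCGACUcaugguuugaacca

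miR-379-5p: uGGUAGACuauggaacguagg

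miR-411-5p: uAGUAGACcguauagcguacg

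miR-300-3p: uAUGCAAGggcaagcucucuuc

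miR-381-3p: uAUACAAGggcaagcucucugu

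miR-134-5p: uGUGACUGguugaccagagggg

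miR-541-5p: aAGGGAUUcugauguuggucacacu

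miR-409-3p: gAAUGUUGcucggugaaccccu

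The sequences follow the order of their hairpins along the locus, from left to right. Within the miR-127 hairpin the 5p arm lies before the 3p arm. The 71 matched rows came from 41 hairpins within 172 kb, of which 1 lay on the minus strand. An upstream group of 12 hairpins started 30.99 to 77.3 kb from the start of Meg3. Of these 12, 5 lay opposite an exon of Rtl1, a retrotransposon-like gene of the placenta whose transcript miR-127 and its neighbours are known to direct to cleavage, and 2 lay in introns of Rian. MiR-127-3p lies there at chr12:109592888-109592909 (GRCm38, plus strand) and miR-434-5p at chr12:109594528-109594549. A downstream group of 29 hairpins started 168 to 202.7 kb from the start of Meg3. It begins with miR-379-5p at chr12:109709065-109709085, which overlapped no annotated host gene exon or intron searched (Meg3, Rtl1, Rian or Mirg), as did 17 of the 29. The other hairpins of the group lay in Mirg, 8 of them in exons and 4 in introns. MiR-134-5p, which in rat neurons represses the kinase Limk1 in dendrites, lies in a Mirg exon at chr12:109734145-109734166, and miR-541-5p and miR-409-3p lie in Mirg introns.

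The 71 matched sequences held 69 different seeds. Only 2 seeds were shared within the locus, by miR-379-3p with miR-411-3p and by miR-299a-3p with miR-299b-3p. None of the 10 seeds printed above was found in a microRNA row outside the locus. MiR-411-5p differed from miR-379-5p at 7 of 21 positions, counted from 1 at the 5′ end with the base of miR-379-5p first, and G2A was the only one of these in the seed. MiR-300-3p differed from miR-381-3p at 3 of 22 positions, with A4G as the only seed difference. The rows of these pairs held whole counts in every library. Fractional counts were found in 4 member rows, the arms of miR-299a and miR-299b, whose hairpins overlap on opposite strands, so that the values of these 4 rows are uncertain.

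Values are counts per 1000000 microRNA counts of a library (CPM). Total counts ran from 84911 to 28371902 with a median of 832213, so 3 counts, used here as the limit that a count of 0 allows, stood for 0.106 to 35.3 CPM. That limit covers counting error only. The labels do not say whether each library had its own animal or culture, so p-values measure the spread between these libraries. The replicate number of a library is the number of its count table per the labels, and it is taken here as a shared batch. OVA-lung Th2 library 2 stood apart from the other libraries of its group. It held 5960 CPM of a 5-row list of muscle microRNAs, with counts in all 5 rows, where libraries 1 and 3 held 0. MiR-1a-3p, a defining microRNA of muscle, made up 4310 CPM of this. A 10-row list of mesenchymal microRNAs (miR-143, miR-145a, miR-199a, miR-199b and miR-214) reached 7139 CPM in library 2, against 78.6 and 494.6 CPM in libraries 1 and 3. Myeloid microRNAs (miR-223, 2 rows) were at 1132 CPM there, against 6.55 and 11.8 CPM. An 11-row epithelial list was at 1459 CPM, against 367 and 212 CPM. A 9-row lymphocyte list (miR-142a, miR-150, miR-155 and miR-181a) was also highest in library 2, at 130945 CPM, against 51259.5 and 71663 CPM in libraries 1 and 3. Endothelial microRNAs (miR-126a, 2 rows) were at 1084 CPM there, against 98.3 and 1036 CPM. Lists of erythroid, liver and neuronal microRNAs were not highest in library 2. Every result on OVA-lung Th2 is therefore given with and without library 2.

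Cultured ILC2 held more of the locus than any other group taken library by library, apart from OVA-lung Th2 library 2. The summed level of the 74 rows was 1553, 1235, 554 and 8273 CPM in cultured ILC2 libraries 1 to 4. It was 15.9, 133.8, 0 and 43.9 CPM in IL-33 ILC2, and 80.1, 313, 0 and 130 CPM in lung ILC2. It was 8.21, 14.8, 0 and 4.27 CPM in cultured Th2, 0, 5284 and 0 CPM in OVA-lung Th2, and 0, 3.58, 0 and 24.5 CPM in CD4 T cells. The lowest cultured ILC2 library thus lay above every library of the other groups but OVA-lung Th2 library 2. In bulk libraries, fewer cells that express the locus and less RNA per cell cannot be told apart.

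**Figure D1:**
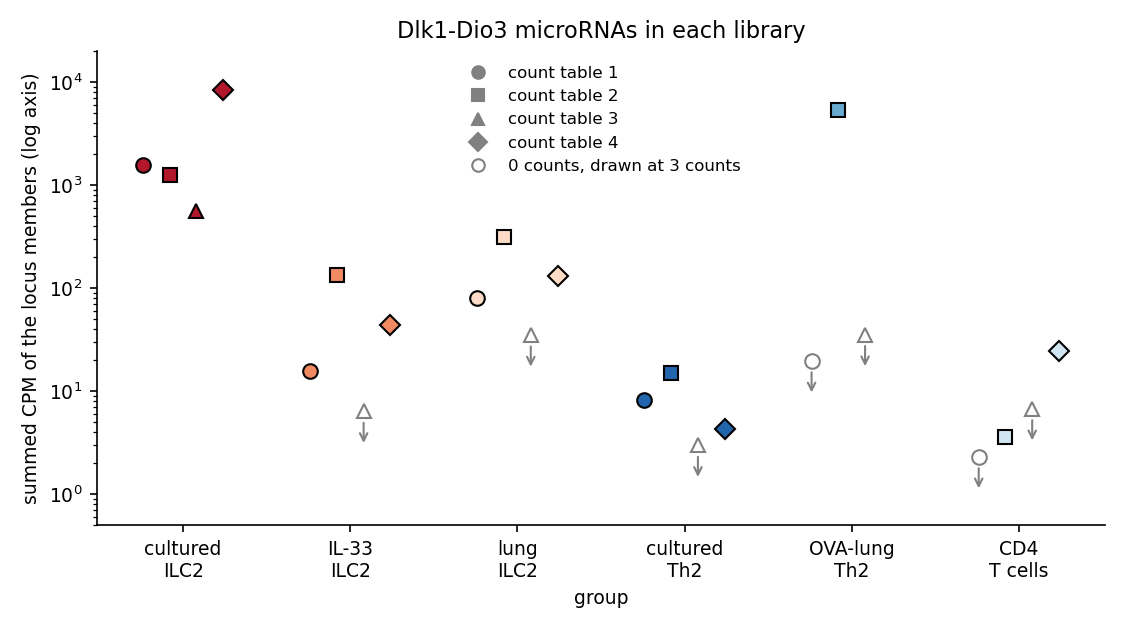
Summed CPM of the 74 Dlk1-Dio3 rows in each of the 23 libraries, on a log axis, by group, with the count table as the symbol. Open symbols with arrows are libraries with 0 counts, drawn at the CPM of 3 counts. The 4 cultured ILC2 libraries sit between 554 and 8273 CPM, and 1 OVA-lung Th2 library sits at 5284 CPM.

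As group means, the locus sum was 2904 ± 3604 CPM in cultured ILC2 (SD, n = 4), 48.4 ± 59.8 CPM in IL-33 ILC2 (n = 4) and 130.7 ± 132.7 CPM in lung ILC2 (n = 4). It was 6.83 ± 6.31 CPM in cultured Th2 (n = 4) and 7.02 ± 11.8 CPM in CD4 T cells (n = 4). For OVA-lung Th2 the mean of 1761 CPM came from library 2 alone, and it is 0 without that library. The SDs show how uneven the libraries were: cultured ILC2 library 4 alone pulls the mean of its group to 2904 CPM, and without it the mean is 1114 CPM. In the order of the levels, IL-33 ILC2 and lung ILC2 overlapped, as did IL-33 ILC2 and CD4 T cells, and cultured Th2 and CD4 T cells.

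Compared within each count table, that is between libraries of the same number, the direction in ILC2 was the same. The locus sum of cultured ILC2 was 19.4, 3.95 and 63.7 times that of lung ILC2 between the libraries numbered 1, 2 and 4, and at least 15.8-fold higher between those numbered 3, where lung ILC2 had no locus count. Against IL-33 ILC2 it was 97.9, 9.23 and 189 times as high for the same 3 numbers, and at least 87.0-fold higher for the remaining number. Against cultured Th2 it was 189, 83.2 and 1938 times as high, and at least 186-fold higher for the libraries numbered 3, where cultured Th2 again had none. The smallest of these folds were all between libraries numbered 2, the number of the highest lung ILC2 library. IL-33 ILC2 had a lower locus sum than lung ILC2, or 0 counts in both, in all 4 count tables.

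The number of members with counts also follows depth, and its order was not that of the locus sums. Cultured ILC2 libraries 1 to 4 held counts in 30, 56, 11 and 33 of the 74 rows, and OVA-lung Th2 library 2 in 44. Lung ILC2 held counts in 1, 21, 0 and 4 rows, IL-33 ILC2 in at most 5, cultured Th2 in at most 11 and CD4 T cells in at most 3. At the depth of the shallowest library, 84911 counts, the expected number of rows with counts was 24.8, 28.2, 8.14 and 27.1 in cultured ILC2 and 39.3 in OVA-lung Th2 library 2. In lung ILC2 it was at most 9.82, and in cultured Th2 at most 1.11. Cultured Th2 library 1 was the deepest of the series, and it still held only 233 locus counts among its 28371902. In all, 68 rows had counts in cultured ILC2, of which 25 had counts in no other group.

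Of the 10 most abundant members, 3 belong to the upstream group. MiR-127-3p is transcribed opposite Rtl1. It was at 112, 159, 259 and 3022 CPM in cultured ILC2 libraries 1 to 4, at 0, 66.9, 0 and 25.6 CPM in IL-33 ILC2, and at 0, 156, 0 and 82.0 CPM in lung ILC2. Its T cell levels were 2.26, 2.32, 0 and 0 CPM in cultured Th2, 0, 1459 and 0 CPM in OVA-lung Th2, and 0, 0, 0 and 14.5 CPM in CD4 T cells. The cultured ILC2 libraries lay above all IL-33 ILC2 and cultured Th2 libraries but overlapped with lung ILC2, whose library 2 was level with cultured ILC2 library 2. MiR-127-5p, the other arm of that hairpin, was at 22.7, 23.7, 0 and 205 CPM in cultured ILC2, at 0 in every IL-33 ILC2 library and at 8.50 CPM in 1 lung ILC2 library. MiR-434-5p was the steadiest of the 3 in culture, with 46.6, 63.4, 40.7 and 102 CPM in cultured ILC2. It had no count in IL-33 ILC2 and reached 4.25 CPM in lung ILC2 library 2 alone, and it was at 0.916 CPM in 1 cultured Th2 library and at 1.34 CPM in 1 CD4 T cell library. In OVA-lung Th2 library 2 it was at 180 CPM, above every cultured ILC2 library.

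The other 7 are downstream. MiR-379-5p, the first hairpin of the downstream group, was at 61.7, 105, 19.7 and 1439.5 CPM in cultured ILC2, at 6.75 CPM in IL-33 ILC2 library 4 alone, and at 80.1, 7.08, 0 and 10.3 CPM in lung ILC2. The first of these lung ILC2 values rests on 11 counts, which are all the locus counts of that library. MiR-411-5p, its near neighbour in sequence, was at 42.2, 120, 118 and 55.3 CPM in cultured ILC2. It was at 15.9 CPM in IL-33 ILC2 library 1 and at 21.2 CPM in lung ILC2 library 2, with no count in the other libraries of either group. Its libraries in culture were within a 3-fold range, and library 4 was not the highest, unlike for the other members named so far.

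MiR-541-5p was at 401, 92.9, 35.1 and 689 CPM in cultured ILC2, at 6.07 CPM in 1 IL-33 ILC2 library and at 22.7 CPM in 1 lung ILC2 library. MiR-409-3p was at 158, 77.9, 15.5 and 949 CPM in cultured ILC2, at 44.6 CPM in IL-33 ILC2 library 2, from 4 counts, and at 6.37 CPM in lung ILC2 library 2. Both lie in Mirg introns, and both were lowest in cultured ILC2 library 3. MiR-134-5p was at 52.0, 73.4, 4.22 and 509 CPM in cultured ILC2 and had no count in any IL-33 ILC2 or lung ILC2 library. Its mean of 160 CPM in cultured ILC2 (SD 235, n = 4) was at least 9.23-fold higher than lung ILC2 and at least 13.4-fold higher than IL-33 ILC2, each set against 3 counts per library. Without cultured ILC2 library 4 these bounds are 2.49-fold and 3.61-fold.

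The pair with nearly the same sequence was less even. MiR-381-3p was at 0, 28.9, 0 and 405 CPM in cultured ILC2, and at no more than 4.72 CPM in IL-33 ILC2 and 3.42 CPM in lung ILC2. MiR-300-3p was at 7.58, 49.0, 0 and 119 CPM in cultured ILC2 and at 0, 7.79, 0 and 34.2 CPM in lung ILC2, with no count in IL-33 ILC2. Each of them had 0 counts in cultured ILC2 library 3 and so overlapped with the other groups. Only 7 rows had counts in all 4 cultured ILC2 libraries: miR-127-3p, miR-134-5p, miR-379-5p, miR-409-3p, miR-411-5p, miR-434-5p and miR-541-5p.

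The other 64 rows were low and scattered. In cultured ILC2 58 of them had counts, with a median group mean of 3.23 CPM, and 17 had a group mean above 10 CPM. In OVA-lung Th2 34 had counts, all in library 2. In IL-33 ILC2 2 had counts, in lung ILC2 12, in cultured Th2 6 and in CD4 T cells none. In cultured ILC2, 7 of the 74 rows had counts in all 4 libraries, 8 in 3 libraries, 25 in 2, 28 in 1 and 6 in none. MiR-433-3p, from opposite Rtl1, was among the steadier of the low members, at 40.1, 43.6, 0 and 39.7 CPM in cultured ILC2, with 4.96 CPM in lung ILC2 library 2 and 7.35 CPM in OVA-lung Th2 library 2. Among the cultured ILC2 libraries, miR-369-3p and miR-410-3p, at the far end of the locus, were highest in library 2, at 78.2 and 40.9 CPM, and had no count in library 1, and in OVA-lung Th2 library 2 they were at 25.7 and 44.1 CPM. MiR-376c-3p was at 44.4 CPM in cultured ILC2 library 1 and 2.40 CPM in library 2, at 0.211 CPM in cultured Th2 library 1 and at 36.7 CPM in OVA-lung Th2 library 2. Which of the low members had counts thus varied between cultured ILC2 libraries.

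**Figure D2:**
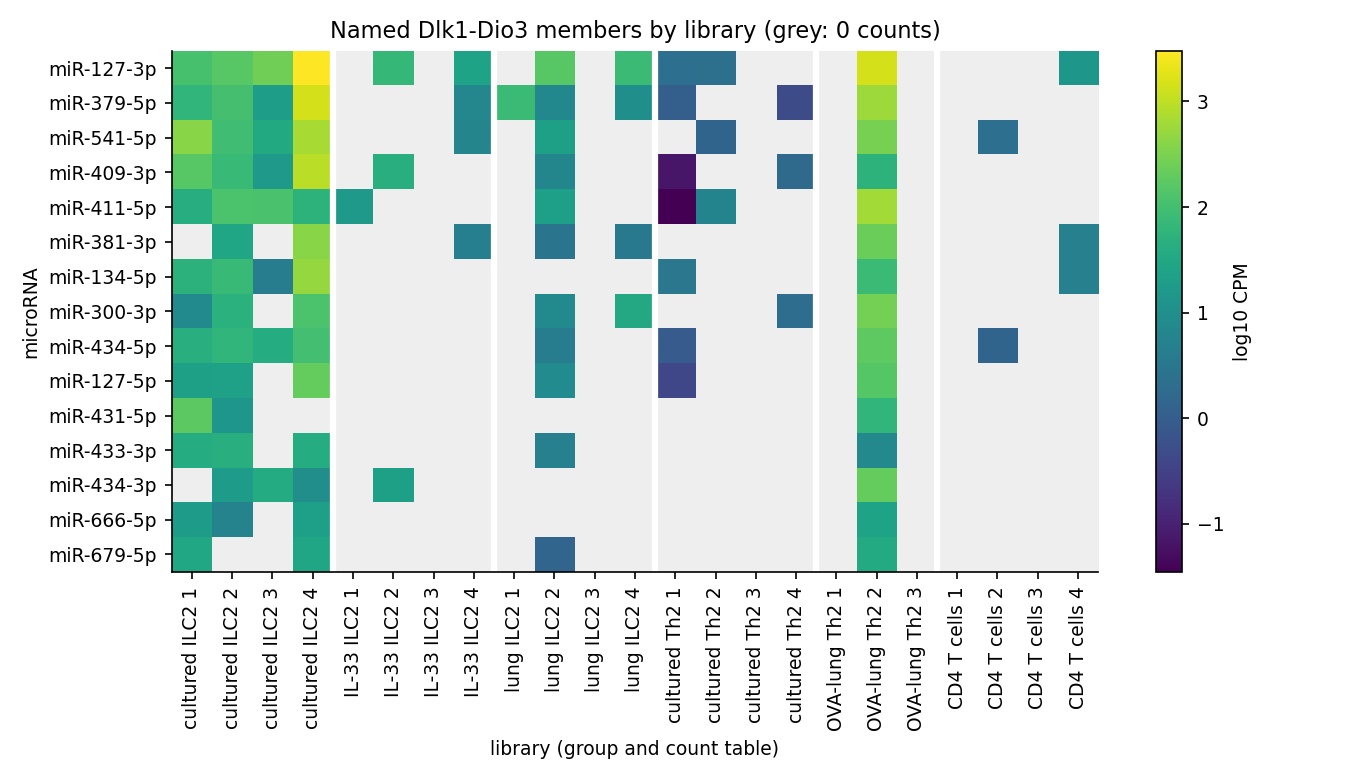
Log10 CPM of 15 Dlk1-Dio3 members (rows) in the 23 libraries (columns, by group and count table), with grey for 0 counts. The rows are the 10 most abundant members and 5 more that passed the test in some comparison. Cultured ILC2 and OVA-lung Th2 library 2 are filled over most rows, and the other T cell libraries are mostly at 0.

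The make-up of the locus differed between libraries. MiR-127-3p took 7.18%, 12.9%, 46.7% and 36.5% of the locus counts in cultured ILC2 libraries 1 to 4, 58.5% in IL-33 ILC2 library 4, and 50.0% and 63.2% in lung ILC2 libraries 2 and 4. In cultured ILC2 library 1 the leading member was miR-541-5p, with 25.8%. The upstream group took 30.8%, 32.5%, 60.9% and 46.8% of the locus in cultured ILC2 libraries 1 to 4 and 44.3% in OVA-lung Th2 library 2. The 10 most abundant members together took 58.2% to 90.6% of the locus counts in cultured ILC2. Spearman's rho of the 74 rows between pairs of cultured ILC2 libraries was 0.204 to 0.575, as a description over rows that share many zeros. OVA-lung Th2 library 2 had rho of 0.393 to 0.435 with the cultured ILC2 libraries, within that range. Of the 44 rows with counts in OVA-lung Th2 library 2, 39 also had counts in cultured ILC2.

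**Figure D3:**
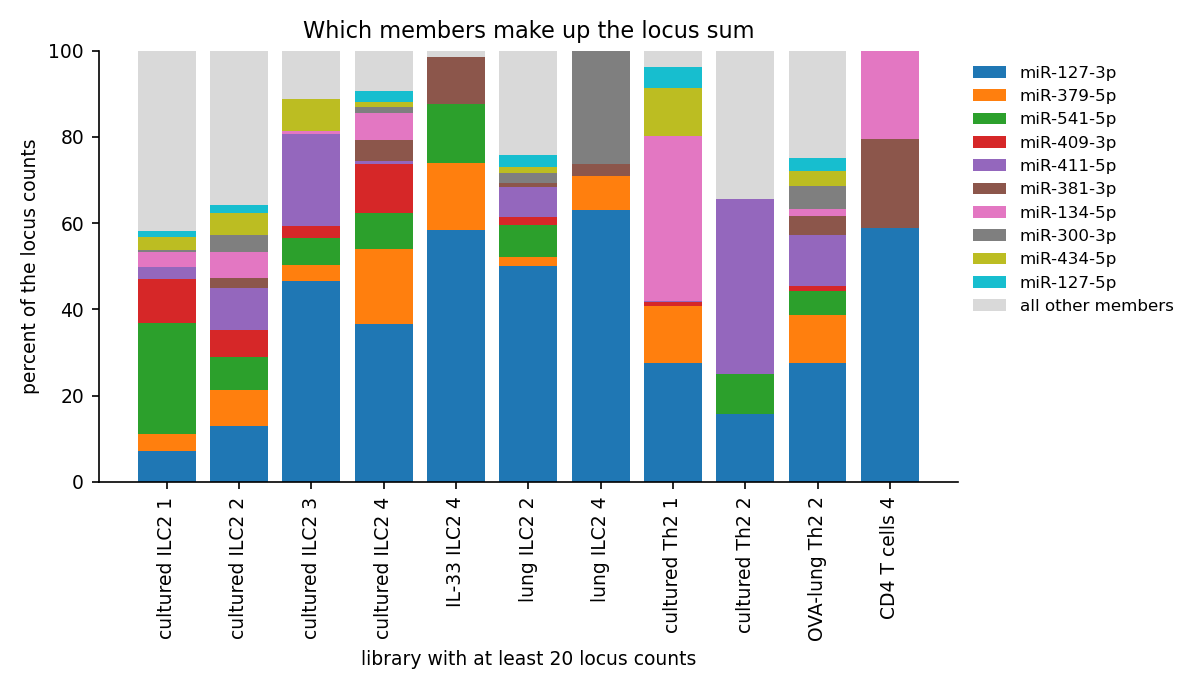
Percent of the locus counts taken by each of the 10 most abundant members in the 11 libraries with at least 20 locus counts. The blue share at the base is miR-127-3p, 7.18% to 46.7% in cultured ILC2 and 50.0% and 63.2% in the lung ILC2 libraries shown.

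Expressed members were not gathered at one place along the locus. In cultured ILC2 the highest mean in the upstream group was that of miR-127-3p, 888 CPM, and the highest in the downstream group was that of miR-379-5p at its start, 406 CPM. MiR-409-3p, near the far end of the downstream group, averaged 300.2 CPM and miR-541-5p 304 CPM. MiR-341-3p, from a Rian intron in the upstream group, was at 291.99 CPM in cultured ILC2 library 4 and at most 4.51 CPM in the other libraries of that group. MiR-136-5p, opposite Rtl1, had 165 CPM in OVA-lung Th2 library 2, and in cultured ILC2 it had counts in library 2 alone, at 2.71 CPM. MiR-431-5p, also opposite Rtl1, was at 172, 13.8, 0 and 0 CPM in cultured ILC2, and at 62.5 CPM in OVA-lung Th2 library 2.

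**Figure D4:**
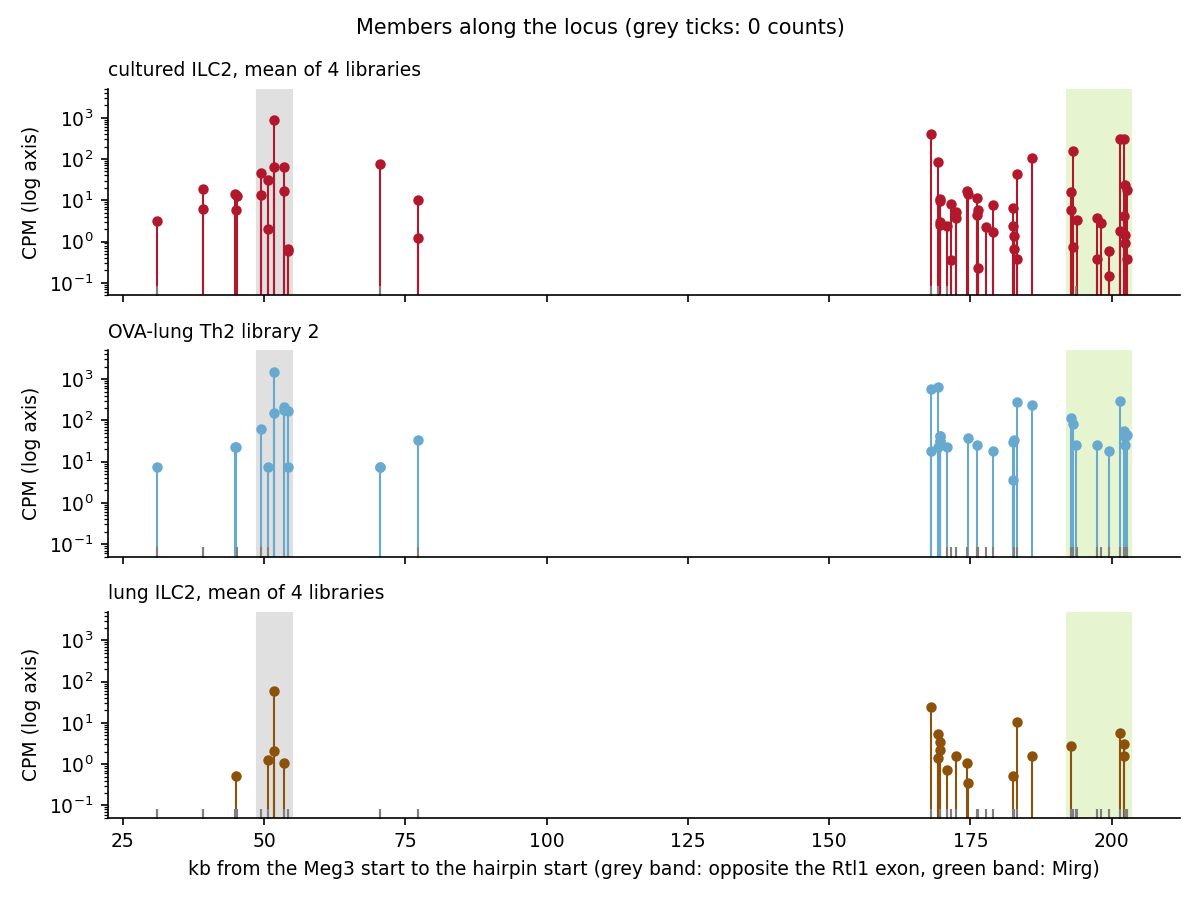
CPM of the 71 matched rows (log axis) against the distance of their hairpin from the start of Meg3 in kb, for cultured ILC2 (mean of 4), OVA-lung Th2 library 2 and lung ILC2 (mean of 4), with grey ticks for 0 counts. Members of both the upstream and the downstream group have counts in all 3 panels, and miR-127-3p near 51.8 kb is the highest in each.

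Arm use was read from hairpins with both arms listed and at least 20 counts over both arms in at least 6 libraries, which held for 4 hairpins. MiR-127 gave mostly its 3p arm, 83.1% to 100% of the counts of both arms over 10 libraries. MiR-541 gave nearly all 5p, with 0% to 1.60% on the 3p arm over 6 libraries, and miR-411 gave 0% on the 3p arm in all 4 cultured ILC2 libraries. In lung ILC2 library 2 the 3p share of miR-411 was 21.1%, from 38 counts. MiR-434 was mixed: the 3p share was 0%, 22.7%, 48.2% and 8.60% in cultured ILC2 libraries 1 to 4 and 53.3% in OVA-lung Th2 library 2. Of 17 hairpins with at least 100 counts over both arms, 12 had over 80% on 1 arm, which was 5p for 5 and 3p for 7.

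Only 17 of the 74 rows passed the filter on low counts, which needs about 12.02 CPM in at least 3 libraries of any group. Of the 17, 9 reached that level in 3 or more cultured ILC2 libraries, where they were high, and the rest in 2. All 17 thus passed largely through the group where they are high. The counts of called members below are therefore no evidence on the locus as a whole. Among the rest, 5 (miR-381-3p, miR-410-3p, miR-431-5p, miR-666-5p and miR-679-5p) passed only with OVA-lung Th2 library 2 as the third library. The fits were therefore repeated without that library, where 22 rows passed because the smallest group then has 2 libraries. The test was edgeR's quasi-likelihood test over all 384 microRNAs that passed, with Benjamini-Hochberg adjustment and calls at an adjusted p below 0.05. It was run without the count table as a block, and again with it. The SE given with a log2 difference is its absolute value divided by the square root of the F statistic of that test. DESeq2 gave an adjusted p to part of the 17 members in each comparison without the block, so its counts are given over those. The biological coefficient of variation was 1.54 without the block and 1.13 with it.

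For cultured ILC2 against lung ILC2, no member was called without the block, where 0.26% of the 384 microRNAs were called, although 15 of the 17 members had an unadjusted p below 0.05, as did 51 of the 384. DESeq2 called 1 of the 6 members it gave an adjusted p (miR-409-3p, higher), where it called 2.16% of 278 microRNAs, and limma on log2(RPM + 0.5) called 0 of 32 members and 0% of 615. With the block 6 members rose and none fell: miR-127-3p, miR-134-5p, miR-409-3p, miR-411-5p, miR-434-5p and miR-541-5p. In that fit 3.65% of the 384 rose and 0.781% fell. MiR-541-5p had the smallest adjusted p of the 6 (edgeR, 0.00959 with the block, 0.221 without), with a log2 difference of 9.28 ± 2.16 (SE). MiR-127-3p had a log2 difference of 6.31 ± 1.89 with the block (adjusted p = 0.0412 in edgeR) and of 5.32 ± 2.15 without it (adjusted p = 0.221). The count of 6 rested on few libraries. With the block it was 3 without OVA-lung Th2 library 2, 0 without lung ILC2 library 4, 1 without cultured ILC2 library 4 or lung ILC2 library 2, 2 without cultured ILC2 library 3, and 3 without lung ILC2 library 1 or 3.

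The other measure of the same contrast needs no filter. Of 70 members with counts in either group, 68 had a higher mean CPM in cultured ILC2, where 59.4% of the 799 rows with counts in either group did. Only 21 member rows had counts in lung ILC2. Members without a count there can only be higher in cultured ILC2, so no conclusion is drawn from the count of 68. In 5 members (miR-134-5p, miR-409-3p, miR-411-5p, miR-434-5p and miR-541-5p) every cultured ILC2 library lay above every lung ILC2 library. A count of 0 was taken as 0 CPM, and the same held for 1.38% of those rows. MiR-134-5p (4.22 CPM) and miR-409-3p (15.5 CPM) in cultured ILC2 library 3 lay under what 3 counts stood for in lung ILC2 library 3. MiR-541-5p (35.1 CPM) was level with that limit. Lung ILC2 library 3 had no count of these members, so their order is open there. The CPM of both groups carry the weight of miR-21a-5p. It held 5.56% to 62.2% of the counts in cultured ILC2 libraries and 1.69% to 10.7% in lung ILC2 libraries. Without it in the denominator the cultured ILC2 mean is higher still, 6517 CPM, against 137 CPM in lung ILC2. That rise comes mainly from cultured ILC2 library 4, where miR-21a-5p held 62.2% of the counts.

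For cultured ILC2 against IL-33 ILC2, the comparison of ILC2 activated in a dish and in the airway, no member was called without the block, where 0% of the 384 microRNAs were called and 15 members, of 59 microRNAs in all, had an unadjusted p below 0.05. DESeq2 called 0 of 13 members, where it called 0.552% of 362, and limma on log2(RPM + 0.5) called 4 of 32 (miR-134-5p, miR-382-3p, miR-434-5p and miR-541-5p, all higher), where it called 0.813% of 615. With the block 6 members rose and none fell: miR-127-3p, miR-134-5p, miR-379-5p, miR-409-3p, miR-434-5p and miR-541-5p. In that fit 2.6% of the 384 rose and 1.56% fell. MiR-541-5p again had the smallest adjusted p (edgeR, 0.0110 with the block, 0.165 without), with a log2 difference of 8.40 ± 2.01 with the block. MiR-411-5p, one of the 6 against lung ILC2, was not called here (log2 difference of 5.31 ± 2.29, adjusted p = 0.183 in edgeR with the block). With the block the count was 0 without cultured ILC2 library 3 or 4, 1 without IL-33 ILC2 library 4 and 3 without IL-33 ILC2 library 2, and it was 5 without OVA-lung Th2 library 2. By mean CPM all 68 members with counts in either group were higher in cultured ILC2, where 63.3% of 783 rows were. Only 8 member rows had counts in IL-33 ILC2, and the direction of the others was fixed by that, so no conclusion is drawn from the count of 68. In 6 members the libraries did not overlap, which held for 1.79% of the 783 rows, with a count of 0 taken as 0 CPM. MiR-134-5p (4.22 CPM) and miR-379-5p (19.7 CPM) in cultured ILC2 library 3 lay under 33.5 CPM. That is what 3 counts stood for in IL-33 ILC2 library 2, which had no count of either, so their order is open there.

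IL-33 ILC2 against lung ILC2 gave no called member with or without the block. Over all 384 microRNAs 0% were called without the block and 0.521% with it, and no member had an unadjusted p below 0.05 in either fit, where 22 and 23 of the 384 did. DESeq2 called 0 of 13 members and limma on log2(RPM + 0.5) 0 of 32, and each called 0% of all. MiR-127-3p had a log2 difference of -1.19 ± 1.84 (SE, without the block), an interval too wide to show that the groups are alike. IL-33 ILC2 held 85 locus counts in all and lung ILC2 491.

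For cultured ILC2 against cultured Th2, the cultured cells of the innate and the adaptive lineage, 3 members rose without the block, where 1.04% of the 384 microRNAs were called: miR-127-3p, miR-381-3p and miR-541-5p. With the block 12 rose, where 7.03% of all rose and 5.47% fell, and no member fell in either fit. The 12 were those 3 with miR-379-5p, miR-409-3p, miR-411-5p, miR-434-5p, miR-431-5p, miR-433-3p, miR-434-3p, miR-666-5p and miR-679-5p. MiR-127-3p had a log2 difference of 9.47 ± 2.58 without the block (adjusted p = 0.0462 in edgeR) and of 7.54 ± 1.93 with it (adjusted p = 0.00849). MiR-541-5p had 1277 counts in cultured ILC2 and 3 in cultured Th2, a ratio of pooled CPM of 2609 (exact 95% counting interval 891 to 12670). Cultured Th2 library 1, the deepest, had no count of it. Without that library the ratio is 525 (179 to 2549), and the group means of 304 and 0.348 CPM stand in a ratio of 875. Its adjusted p was 0.0462 without the block and 0.000419 with it (edgeR). MiR-381-3p had no count in cultured Th2, and its mean of 108 CPM in cultured ILC2 was at least 82.9-fold higher, against 3 counts per library. That bound rests on cultured ILC2 library 4, and without it the mean is 9.62 CPM and the bound 7.35-fold. DESeq2 called 3 of the 6 members it gave an adjusted p (miR-127-5p, miR-409-3p and miR-541-5p, all higher), where it called 6.38% of 298, and limma on log2(RPM + 0.5) called 9 of 32, where it called 2.44% of 615.

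Each of the 3 calls without the block rested on single libraries. Their number was 0 without cultured ILC2 library 2 or 4 or without any 1 of the 4 cultured Th2 libraries, and 1 without cultured ILC2 library 1. With the block it was 1 without cultured ILC2 library 4, 3 without cultured Th2 library 4, 4 without cultured ILC2 library 3 or cultured Th2 library 2, 6 without cultured ILC2 library 1, and 8 to 10 without each of the other 3. Without OVA-lung Th2 library 2 it was 4 without the block and 11 with it. By mean CPM all 68 members with counts in either group were higher in cultured ILC2, where 40.4% of 1012 rows were. Only 15 member rows had counts in cultured Th2, and the direction of the others was fixed by that, so no conclusion is drawn from the count of 68. The libraries did not overlap in 7 members, those seen in all 4 cultured ILC2 libraries, which held for 2.37% of the 1012 rows.

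Among T cells the locus was low outside OVA-lung Th2 library 2, with a sum of at most 24.5 CPM. Cultured Th2 against CD4 T cells gave no called member with or without the block, where 1.04% and 13.3% of the 384 microRNAs were called. At an unadjusted p below 0.05 there were 2 members without the block and 1 with it, among 54 and 101 of the 384. DESeq2 called 1 of 7 members (miR-411-5p, higher), where it called 8.52% of 305, and limma on log2(RPM + 0.5) called 0 of 32, where it called 0.976% of 615. Cultured Th2 held 282 locus counts and CD4 T cells 47. In cultured Th2 library 1 miR-134-5p was the leading member with 3.14 CPM from 89 counts, and in library 2 it was miR-411-5p with 6.03 CPM from 13 counts. MiR-379-5p was at 1.09, 0, 0 and 0.502 CPM in cultured Th2 and miR-409-3p at 0.0705, 0, 0 and 1.76 CPM, and neither had a count in CD4 T cells. MiR-127-5p (0.388 CPM in library 1), miR-300-3p (2.01 CPM in library 4) and miR-541-5p (1.39 CPM in library 2) each had counts in 1 cultured Th2 library, and miR-381-3p had none. In CD4 T cells, library 4 held 39 of the 47 counts, 23 of them of miR-127-3p and 8 each of miR-381-3p and miR-134-5p.

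For OVA-lung Th2 against CD4 T cells, no member was called without the block, where 0% of the 384 microRNAs were called and 14 members, of 68 microRNAs in all, had an unadjusted p below 0.05. With the block miR-379-5p and miR-300-3p rose, where 2.86% of all rose, with adjusted p of 0.00579 and 0.0368 (edgeR). DESeq2 called 1 of 5 members (miR-411-5p, higher), where it called 8.97% of 234, and limma called 0 of 32, where it called 1.46% of 615. Without OVA-lung Th2 library 2 no member was called in either fit, and the group then held no locus count at all in 152596 and 84911 counts, which allows up to 19.7 and 35.3 CPM. With the block the count was 5 without OVA-lung Th2 library 1, and 1 without OVA-lung Th2 library 3 or CD4 T cell library 2. In library 2 the leading members were miR-127-3p with 1459 CPM, miR-411-5p with 628 CPM and miR-379-5p with 584 CPM. The other 7 of the 10 most abundant members followed at 55.1 CPM (miR-409-3p) to 298 CPM (miR-541-5p). MiR-409-3p was the lowest of the 10 in this library, while miR-434-3p (205.8 CPM) and miR-136-5p (165 CPM), from outside the 10, lay above it.

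Lung ILC2 against CD4 T cells, the cells closest to rest in each lineage, gave no called member without the block, where 1.04% of all were called and 4 members, of 60 microRNAs in all, had an unadjusted p below 0.05. With the block miR-379-5p rose, where 3.65% of all rose (adjusted p = 0.0247 in edgeR, log2 difference of 7.87 ± 2.40), and it had no count in CD4 T cells. DESeq2 called 1 of 6 members, another one (miR-411-5p, higher), where it called 9.47% of 285, and limma called 0 of 32, where it called 0.976% of 615. The call of miR-379-5p was lost with the block without lung ILC2 library 1, where the microRNA stood at 80.1 CPM, and also without CD4 T cell library 1, 2 or 4.

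Whether culture moved the locus differently in ILC2 and T cells was tested as the change of cultured ILC2 over lung ILC2 minus the change of cultured Th2 over CD4 T cells. No member was called with or without the block, where 0% and 1.3% of the 384 microRNAs were called. At an unadjusted p below 0.05 there were 4 members without the block and 3 with it, among 21 and 44 of the 384. DESeq2 called 1 of 13 members (miR-411-5p, lower), where it called 1.1% of 362, but with the block it called 2 other members in the opposite direction (miR-134-5p and miR-541-5p, higher). Limma on log2(RPM + 0.5) called 0 of 32 and 0% of 615. MiR-541-5p had a difference of log2 changes of 9.70 ± 2.71 with the block (adjusted p = 0.0557 in edgeR). With the block 1 member was called without cultured ILC2 library 2, lung ILC2 library 3 or cultured Th2 library 1. That the locus was higher in cultured than in lung ILC2 is thus not shown to be particular to ILC2.

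Markers of other cells were read beside the locus, and their part in the result was not tested. Mesenchymal microRNAs summed to 132, 111, 123.6 and 1242 CPM in cultured ILC2 libraries 1 to 4, against 4851, 11706, 4587 and 5849 CPM in lung ILC2. The list was thus lower in cultured ILC2, where the locus was higher, and within cultured ILC2 it was highest in library 4, which also had the highest locus sum. In that library miR-143-3p made up 1199 of the 1242 CPM. The muscle list was at 7.21 to 43.3 CPM in cultured ILC2, with counts in 3 of its 5 rows, and at 0 to 70.1 CPM in lung ILC2, with counts in 2. Endothelial microRNAs (miR-126a, 2 rows) were at 37.9 to 500.2 CPM in cultured ILC2 and at 256 to 21608 CPM in lung ILC2. A list of early embryo microRNAs of 4 rows was at 0 in every library.

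Neuronal microRNAs (miR-9, miR-124 and miR-219a, 5 rows) were at 102, 40.3, 11.2 and 88.9 CPM in cultured ILC2 libraries 1 to 4, against 0, 23.4, 0 and 61.5 CPM in lung ILC2, with counts in 5 and 3 of the rows. The list was thus higher in cultured ILC2 between the libraries numbered 1, 2 and 4. Between those numbered 3 the order is open, since 11.2 CPM lies under what 3 counts stood for in lung ILC2 library 3. The locus sum was higher in cultured ILC2 at every replicate number. The neuronal list reached 36.7 CPM in cultured Th2 and 83.6 CPM in CD4 T cells, where the locus was low. A 9-row list of lymphocyte microRNAs (miR-142a, miR-150, miR-155 and miR-181a) was at 12228, 58572, 27062 and 2577 CPM in cultured ILC2, against 28620, 62424, 34828 and 8826 CPM in lung ILC2. The lymphocyte list was lowest in library 4 of every group that has one, also in IL-33 ILC2 (6909 CPM), cultured Th2 (2119 CPM) and CD4 T cells (66412.5 CPM). Its low level in library 4 is thus not particular to cultured ILC2, where that library had the highest locus sum.

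**Figure D5:**
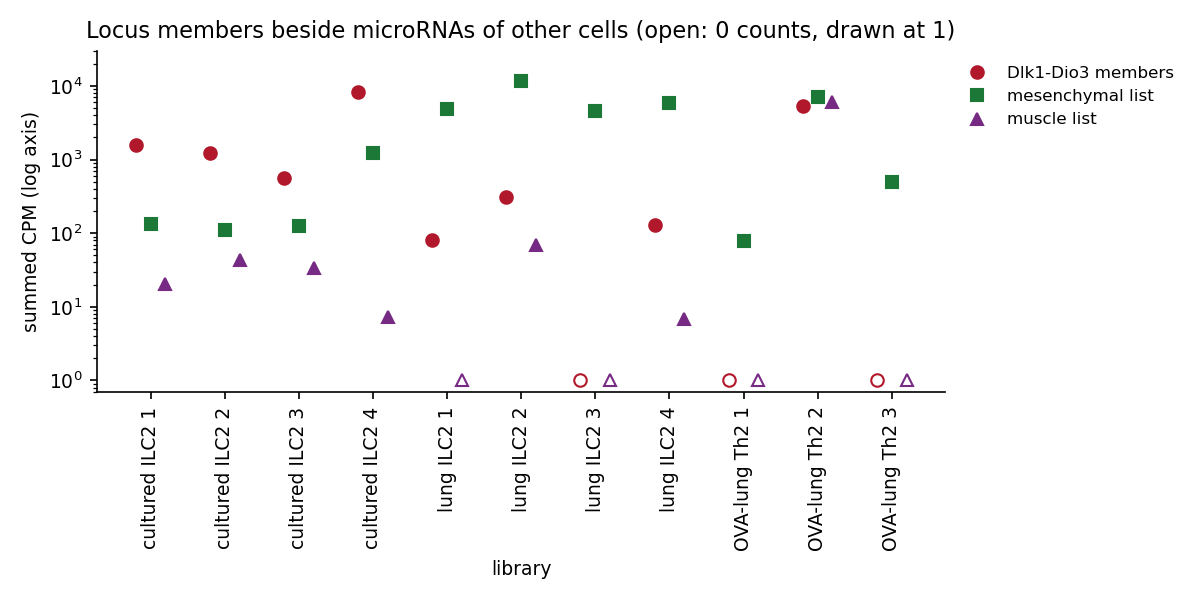
Summed CPM (log axis) of the Dlk1-Dio3 members, the mesenchymal list and the muscle list in the libraries of cultured ILC2, lung ILC2 and OVA-lung Th2, with open symbols at 1 for 0 counts. The locus lies above the mesenchymal list in all 4 cultured ILC2 libraries and below it in all 4 lung ILC2 libraries, and OVA-lung Th2 library 2 is high in all 3.

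The 5 microRNAs outside the locus whose CPM was most like the locus sum were named from the 367 other tested microRNAs by Spearman's rho over the 23 libraries, as a description. They were miR-100-5p (rho 0.815), miR-147-3p (0.762), miR-10b-5p (0.749), miR-1a-3p (0.710) and miR-145a-3p (0.636). MiR-1a-3p and miR-145a-3p are in the muscle and mesenchymal lists. MiR-10b-5p averaged 162 CPM in cultured ILC2, 24.4 CPM in IL-33 ILC2 and 49.2 CPM in lung ILC2, and 5.04 CPM in cultured Th2. MiR-100-5p, by contrast, averaged 91.2 CPM in cultured ILC2 and 107 CPM in lung ILC2. The libraries share a count table and depth, and zeros in the locus sum are tied.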

How the data were processed

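Expected counts per mature microRNA, which need not be whole, were deposited by the authors in 4 count tables of 871, 1141, 482 and 725 entries. Rows that a table lacks count as 0 in its libraries. The authors' RPM table gives reads per 1000000, with columns that sum to 1000000, and 73 of the 74 members are in it. Per the submitters' processing notes the build was mm10 and DESeq2 was used. No aligner or trimming step is stated in the sources used here. The authors' 6 group averages were not used.

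The members, lists and tests were chosen with earlier results of these data known. Counts were rounded and tested with edgeR 4.0.16 in R 4.3.3 (TMM, filterByExpr by group, robust quasi-likelihood, 1 fit of all 6 groups), after a test on simulated data. DESeq2 1.42.0 and limma 3.58.1 (RPM above 1 in at least 3 libraries, pseudocount 0.5) were alternatives, as were other scalings, no filter and leaving out each library.

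The labels tie each replicate number to a count table. This pairing was checked on 204 microRNAs (10 or more counts in 12 or more libraries). In 51 of 55 same-number pairs the deviations from the group mean had a correlation over 0.1 (median 0.389, against -0.155 between numbers), and 22 of 23 libraries correlated best with their own number.

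Named members were the 10 with the highest average of group means, every member called with or without the block, the hairpins whose arms could be compared, and the 5 tested microRNAs outside the locus most like it.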

Additional observations from a re-analysis of the deposited data

Results flagged for a closer look

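Of 44 sets of 4 libraries (the locus sum and the 10 most abundant members, by group), 31 held a library far from the other 3, by Dixon's test at its 95% critical value. For normally distributed values chance alone gives about 1 in 20. These CPM are uneven with many zeros, so the 31 cannot be set against that share. In 20 of the 31 the other 3 libraries had no count, so that any count at all stands apart.

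In cultured ILC2, library 4 was far above the others for the locus sum (8273 CPM) and for miR-127-3p (3022 CPM), miR-379-5p (1439.5 CPM), miR-409-3p (949 CPM), miR-134-5p (509 CPM), miR-381-3p (405 CPM) and miR-127-5p (205 CPM). The next highest libraries were at 1553 CPM for the locus sum and 259 CPM for miR-127-3p. MiR-21a-5p took 62.2% of the counts in library 4.

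In IL-33 ILC2, library 1 stood apart for miR-411-5p (15.9 CPM), library 2 for miR-409-3p (44.6 CPM), and library 4 for miR-379-5p (6.75 CPM), miR-541-5p (6.07 CPM) and miR-381-3p (4.72 CPM). In lung ILC2, library 1 stood apart for miR-379-5p (80.1 CPM), and library 2 for miR-541-5p (22.7 CPM), miR-411-5p (21.2 CPM), miR-127-5p (8.50 CPM), miR-409-3p (6.37 CPM) and miR-434-5p (4.25 CPM).

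In cultured Th2, library 1 stood apart for miR-134-5p (3.14 CPM), miR-434-5p (0.916 CPM) and miR-127-5p (0.388 CPM), library 2 for miR-411-5p (6.03 CPM) and miR-541-5p (1.39 CPM), and library 4 for miR-300-3p (2.01 CPM) and miR-409-3p (1.76 CPM). In CD4 T cells, library 4 stood apart for the locus sum (24.5 CPM), miR-127-3p (14.5 CPM), miR-381-3p (5.03 CPM) and miR-134-5p (5.03 CPM), and library 2 for miR-541-5p (2.24 CPM) and miR-434-5p (1.34 CPM).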

How the results depend on the processing

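No log2 change of a named member reversed sign in the comparisons of cultured ILC2 with lung ILC2, IL-33 ILC2 and cultured Th2. This covers the other scalings, the block, and the fits without the block that leave out a library. The named members were chosen as abundant or as called in these same data. Some had no count in the reference group, such as miR-134-5p in lung ILC2. Their sign could thus hardly turn, and this result is no support for the changes. The counts of called members depended on the settings, and the cause was not tested. Given in the order cultured ILC2 against lung ILC2, IL-33 ILC2 and cultured Th2, then OVA-lung Th2 and lung ILC2 each against CD4 T cells, each as members of all microRNAs called, they were 0 of 1, 0 of 0, 3 of 4, 0 of 0 and 0 of 4 in edgeR without the replicate block. With the block they were 6 of 17, 6 of 16, 12 of 48, 2 of 24 and 1 of 48, with the block and size factors 3 of 12, 6 of 15, 12 of 44, 2 of 25 and 1 of 36, and with the block and library totals 2 of 15, 5 of 14, 13 of 44, 2 of 17 and 1 of 26. With library totals and no block they were 0 of 0, 0 of 0, 7 of 12, 2 of 5 and 0 of 6, and without the filter 0 members in all 5. In DESeq2 they were 1 of 6, 0 of 2, 3 of 19, 1 of 21 and 1 of 27. In limma they were 0 of 0, 4 of 5, 9 of 15, 0 of 9 and 0 of 6, and with a pseudocount of 5 they were 4 of 5, 6 of 7, 9 of 14, 0 of 1 and 0 of 8. Chosen after seeing the data were the block without the filter, with 1 of 6, 3 of 6, 5 of 26, 1 of 12 and 1 of 22, and DESeq2 with the block, with 4 of 35, 5 of 31, 6 of 52, 1 of 55 and 2 of 64 (miR-379-5p higher and miR-134-5p lower). DESeq2 also called 1 member in cultured Th2 against CD4 T cells (of 26 in all), and 1 in the difference of culture responses (miR-411-5p, lower, of 4 in all), where with the block it called 2 others (miR-134-5p and miR-541-5p, higher, of 20 in all).

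Leaving out 1 library at a time, OVA-lung Th2 library 2 in every comparison (chosen after seeing the data) and otherwise those of the groups compared, gave 0 members in each comparison without the block, except 0 to 4 for cultured ILC2 against cultured Th2. With the block, chosen after seeing the data, the ranges in the same order were 0 to 6, 0 to 6, 1 to 11 (8 without cultured ILC2 library 2, 10 without cultured Th2 library 3), 0 to 5 and 0 to 1, with 0 to 1 for the difference of culture responses and 0 for the other comparisons. Mean locus sums ran from 1114 to 3687 CPM in cultured ILC2, 19.9 to 64.5 CPM in IL-33 ILC2, 70.0 to 174 CPM in lung ILC2, 4.16 to 9.11 CPM in cultured Th2, 0 to 2642 CPM in OVA-lung Th2 and 1.19 to 9.36 CPM in CD4 T cells. With miR-21a-5p out of the denominator they were 6517 CPM in cultured ILC2, mainly from library 4, and 14.8 CPM in cultured Th2. Scaling moved the median log2 change of all 384 microRNAs for cultured against lung ILC2 with the block: it was 0.73 under TMM, 0.36 under size factors and -0.14 under library totals. Depth limits values near 0: in libraries without a locus count, 3 counts stood for 2.31 to 35.3 CPM.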

Other observations

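Another 7 rows lie between the start of Meg3 and the start of Dio3 but outside the list of names, miR-770-5p of them within Meg3. They summed to 0, 12.9, 0 and 18.0 CPM in cultured ILC2 libraries 1 to 4 and to 58.8 CPM in OVA-lung Th2 library 2. MiR-3072-3p, 207 kb from the start of Meg3 and just past the last member, averaged 3.15 CPM in cultured ILC2, and miR-1193-3p, inside the downstream group, averaged 2.25 CPM. Neither had a count in the other 5 groups. MiR-1247-5p, next to Dio3 at 737 kb, had counts in IL-33 ILC2 and OVA-lung Th2 (means of 8.36 and 19.6 CPM), but none in cultured ILC2.

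Members that had no count in cultured ILC2 but some in OVA-lung Th2 library 2 numbered 5.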
